A study of Rattus norvegicus with 18 samples.

Results

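The genes described here encode the proteins of the mitochondrial ribosome. They were taken as all genes whose single annotated symbol begins with Mrpl or Mrps followed by a digit, and each was read from its brightest probe set, the group of short array probes that reports on 1 transcript. This gave 73 of the 14217 genes measured, from 97 of the 31099 probe sets. By their place in the ribosome, 48 belong to the large subunit, among them Mrps30 and Mrps18a despite their names, and 25 to the small subunit. By descent, 42 have counterparts in bacterial ribosomes and 31 are specific to mitochondria.

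Livers came from adult male Sprague Dawley rats kept for 8 weeks on chow, on a high fat diet (HFD), or on that diet plus daily pomegranate skin extract, 150 mg per kg (HFD+PE), and fasted overnight before collection. The labels call the HFD livers fatty and those of both other groups normal. Each group had 6 Affymetrix arrays. In each, 1 pair of arrays was near-identical (chow 3 and 4, HFD 1 and 2, HFD+PE 3 and 4) and was counted as 1 animal, an inference from the values, so that n = 5 animals per group. All values are log2 signals or differences between them, and the signals had been rounded to steps of 0.1.

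Mitochondrial ribosomes translate the few proteins still encoded by mitochondrial DNA, all of them subunits of the oxidative phosphorylation (OXPHOS) complexes. Every one of their own proteins is encoded in the nucleus, made in the cytosol and imported, so that the set depends on transcription of many scattered nuclear genes. The transcription factors NRF1, GABP (of the ETS family) and YY1 are known to act on many nuclear genes of mitochondrial proteins, and the liver is rich in mitochondria that burn fatty acids.

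The liver samples had the signal of their labelled tissue: the albumin gene Alb stood at 14.97 ± 0.04 in chow, 14.95 ± 0.05 in HFD and 14.96 ± 0.05 in HFD+PE (SD, n = 5 each). All 73 mitoribosomal protein genes had a mean signal above the median of all genes, 6.617, and 50 lay above 8.228, the 75th percentile of all genes. The mean signal ran from 6.94 for the probe set of Mrps22 to 10.81 for that of Mrpl54; the brightest after it were Mrpl43, Mrpl53, Mrpl18 and Mrpl15, and the dimmest after Mrps22 were Mrps27, Mrps18c, Mrpl38 and Mrpl49. Brightness depends on a probe set's own probes, so no order of transcript levels was read from it. In whole tissue, fewer cells of a type and less RNA per cell cannot be told apart.

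Promoter sequences were matched for 59 of the 73 genes in RefSeq (build GRCr8, 250 bases before to 50 bases after the annotated start). Those of Mrpl13, Mrpl15, Mrpl16, Mrpl19, Mrpl21, Mrpl35, Mrpl38, Mrpl43, Mrps12, Mrps22, Mrps24, Mrps28, Mrps34 and Mrps35 were not matched. The letters searched, on both strands, were the palindromic consensus of NRF1, CCGGAAG for the ETS family, AAGATGGC for YY1 and TATAAA for the TATA box. The ETS family and YY1 letters can share 3 bases, and 0 of the 59 promoters held such an overlap. Shown first are the promoters of the 6 genes with an unadjusted p under 0.05 in any comparison of groups, and then that of Mrpl46, whose window also reaches the start of Mrps11, a second gene of the set. They are written 5′ to 3′ on the strand of the gene, and capitals mark the matches: Mrpl4 (chr8:27815521-27815820, plus strand, ETS family), Mrpl32 (chr17:55260401-55260700, plus strand, YY1 and NRF1), Mrpl33 (chr6:30553938-30554237, minus strand, ETS family), Mrpl49 (chr1:212779278-212779577, minus strand, YY1), Mrps6 (chr11:44778417-44778716, plus strand, YY1), Mrps27 (chr2:32473954-32474253, plus strand, ETS family and YY1) and Mrpl46 (chr1:142116981-142117280, minus strand, TATA box and YY1).
Mrpl4: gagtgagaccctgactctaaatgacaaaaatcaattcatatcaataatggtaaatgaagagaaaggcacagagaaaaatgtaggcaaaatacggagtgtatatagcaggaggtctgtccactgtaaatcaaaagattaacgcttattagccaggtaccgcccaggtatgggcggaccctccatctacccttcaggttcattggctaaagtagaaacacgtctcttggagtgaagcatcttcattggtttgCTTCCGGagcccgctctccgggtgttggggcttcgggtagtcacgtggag
Mrpl32: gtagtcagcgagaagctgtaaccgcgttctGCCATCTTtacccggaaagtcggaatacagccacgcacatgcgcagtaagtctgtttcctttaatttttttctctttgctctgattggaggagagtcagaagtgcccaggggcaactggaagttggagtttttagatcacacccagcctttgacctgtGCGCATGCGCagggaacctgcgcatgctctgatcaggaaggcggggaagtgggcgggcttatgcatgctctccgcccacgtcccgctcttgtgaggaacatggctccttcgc
Mrpl33: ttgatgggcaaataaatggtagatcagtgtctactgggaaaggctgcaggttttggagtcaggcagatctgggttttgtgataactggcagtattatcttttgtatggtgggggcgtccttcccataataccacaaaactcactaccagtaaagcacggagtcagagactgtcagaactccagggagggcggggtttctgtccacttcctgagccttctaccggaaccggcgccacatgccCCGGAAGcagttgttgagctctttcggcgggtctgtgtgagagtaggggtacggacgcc
Mrpl49: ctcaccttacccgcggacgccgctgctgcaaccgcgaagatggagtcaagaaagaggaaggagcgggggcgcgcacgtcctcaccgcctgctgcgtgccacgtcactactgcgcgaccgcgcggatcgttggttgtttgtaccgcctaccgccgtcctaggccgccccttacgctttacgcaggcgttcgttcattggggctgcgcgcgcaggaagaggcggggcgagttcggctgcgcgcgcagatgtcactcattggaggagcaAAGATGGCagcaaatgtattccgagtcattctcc
Mrps6: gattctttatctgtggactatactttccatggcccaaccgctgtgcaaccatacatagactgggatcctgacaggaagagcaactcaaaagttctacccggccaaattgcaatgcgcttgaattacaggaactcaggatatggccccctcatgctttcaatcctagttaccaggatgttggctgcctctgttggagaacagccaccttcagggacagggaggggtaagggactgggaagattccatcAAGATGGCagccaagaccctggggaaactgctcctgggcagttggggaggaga
Mrps27: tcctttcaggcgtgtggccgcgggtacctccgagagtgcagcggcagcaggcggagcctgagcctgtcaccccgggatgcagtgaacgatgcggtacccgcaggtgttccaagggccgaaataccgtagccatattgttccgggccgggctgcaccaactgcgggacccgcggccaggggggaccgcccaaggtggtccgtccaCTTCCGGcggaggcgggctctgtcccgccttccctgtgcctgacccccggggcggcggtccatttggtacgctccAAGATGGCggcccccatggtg
Mrpl46: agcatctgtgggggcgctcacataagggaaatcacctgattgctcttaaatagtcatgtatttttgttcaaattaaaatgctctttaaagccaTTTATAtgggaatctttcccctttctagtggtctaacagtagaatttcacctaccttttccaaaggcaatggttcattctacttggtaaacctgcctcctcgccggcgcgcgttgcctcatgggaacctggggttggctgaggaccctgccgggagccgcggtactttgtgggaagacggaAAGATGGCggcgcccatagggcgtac

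The YY1 letters were found in 14 of the 59 promoters (23.7%), against 3.92% of the promoters of 18999 protein-coding genes. Of these matches, 12 began within 50 bases of the annotated start, and 12 read along the strand of the gene, the latter as in Mrpl49, Mrps6, Mrps27 and Mrpl46 above. ETS family letters stood in 20 promoters (33.9% against 11.2%) and NRF1 letters in 4, those of Mrpl17, Mrpl32, Mrpl44 and Mrps18b (6.78% against 1.13%). Of 22 ETS family matches, 15 began within 50 bases of the start and 11 read along the strand of the gene. Place and strand of matches were not counted over all protein-coding genes. At least 1 of these 3 motifs was present in 31 promoters (52.5% against 15.2%), and Mrps18b held all 3. The TATA box letters were at 11.9% against 13.1%, and median GC content was 56% against 55.3%. These shares describe letters in a fixed window, not bound sites, and their differences were not tested.

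**Figure D1:**
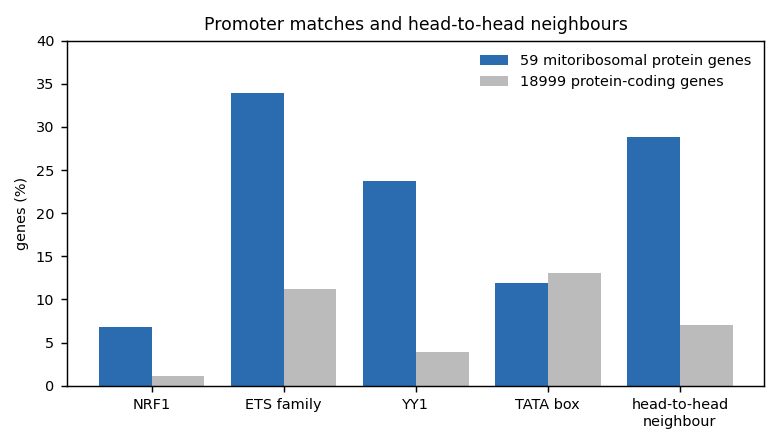
Share of genes (%) whose promoter window holds each motif, and share with a protein-coding neighbour that starts within 1000 bases on the opposite strand, for 59 mitoribosomal protein genes (blue) and 18999 protein-coding genes (grey). The blue bars are higher for NRF1, ETS family, YY1 and head-to-head neighbours (28.8% against 6.99%) and not for the TATA box.

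Many of the genes lie head to head with another gene, the 2 starts facing away from each other across a short gap. A protein-coding start on the opposite strand within 1000 bases upstream was found for 17 of the 59 (28.8%), against 6.99% of protein-coding genes. Mrpl46 and Mrps11 face each other across 234 bases, so that 1 short stretch lies before a large subunit and a small subunit gene. Mrpl47 lies 244 bases from Ndufb5, a subunit of respiratory complex I, Mrpl32 lies 210 bases from the proteasome subunit gene Psma2, Mrps27 lies 91 bases from Ptcd2, and Mrpl49 lies 186 bases from Fau, which encodes a protein of the cytosolic ribosome.

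The comparison of HFD with chow asked whether the fat diet altered the set. It gave no call: 0 of 73 genes had an adjusted p under 0.05, that is, a limma p-value corrected by Benjamini-Hochberg over all 14217 genes, where 0% of all genes had. The unadjusted p was under 0.05 for 4 of 73 (5.48%), against 7.65% of all genes; 2 were higher (2.74%, against 4.08%) and 2 lower (2.74%, against 3.57%). Arrays fell into a high and a low set by their hybridization controls, transcripts added before hybridization. With that set as a covariate the count was 0 of 73, against 4.68% of all genes in the same fit. Differences were small on both sides, with 43 genes higher, 29 lower and 1 equal, a median of 0.02 against 0.00 for all genes, and a range from -0.31 to 0.26. In 0 of 73 genes did the animals of both groups separate without overlap, against 0.521% of all genes (0.309% higher, 0.211% lower).

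The 4 genes were Mrpl32 and Mrpl4 on the higher side and Mrps27 and Mrpl49 on the lower. Mrpl32 encodes a large subunit protein that a mitochondrial protease must trim before it joins the ribosome. It stood at 8.7, 8.8, 9.0, 9.0 and 8.8 in the chow animals and at 9.0, 9.0, 9.2, 9.1 and 9.3 in the HFD animals. All 5 HFD animals lay at or above the highest chow value. The difference was 0.26 (standard error, SE, 0.09, 95% interval 0.07 to 0.45, limma unadjusted p = 0.0108, adjusted p = 0.569). It was 0.177 with the hybridization-control set as a covariate and 0.187 on arrays of the low set.

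Mrps27, which encodes a pentatricopeptide repeat protein of the small subunit that binds RNA, stood at 7.5, 7.4, 7.2, 7.3 and 7.1 in chow and at 7.15, 7.0, 6.7, 7.3 and 6.8 in HFD. The groups overlapped, with HFD 5 at the level of the middle chow animal. Its difference of -0.31 (SE 0.12, 95% interval -0.57 to -0.05; limma unadjusted p = 0.0212, adjusted p = 0.575) was the lowest of the set. A pair of dimmer Mrps27 probe sets gave -0.04 (SE 0.10) and -0.03 (SE 0.09), and the difference was -0.127 with the probe sets averaged and -0.174 with the hybridization-control set of the arrays as a covariate. Mrpl49, a large subunit protein without a bacterial counterpart, stood at 7.5, 7.7, 7.6, 7.5 and 7.4 in chow and at 7.3, 7.4, 7.0, 7.5 and 7.4 in HFD, with HFD 4 below all other animals. The difference was -0.22 (SE 0.10; adjusted p = 0.623 in limma), and a dimmer probe set of Mrpl49 gave -0.29 (SE 0.16). Without HFD 4 the Mrpl49 difference was -0.14, and with the covariate it was -0.137.

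Mrpl4 belongs to the family of ribosomal proteins that line the tunnel through which a new protein leaves. It stood at 9.1, 9.1, 9.3, 9.4 and 9.2 in chow and at 9.3, 9.5, 9.3, 9.5 and 9.3 in HFD. The ranges overlapped, and the difference was 0.16 (SE 0.08; adjusted p = 0.651 in limma). It was 0.104 with the covariate, 0.08 on arrays of the low control set and 0.10 on arrays with second description number 3. The next genes on the higher side by p were Mrps9 and Mrpl1 (0.14 each), Mrpl57 and Mrps17 (0.13 each), Mrps30 (0.17), Mrpl15 (0.12), Mrpl53 (0.11) and Mrpl30 (0.19). On the lower side they were Mrps11 (-0.09), Mrps18b and Mrpl46 (-0.12 each), Mrps25 and Mrpl27 (-0.09 each), Mrps12 (-0.11), Mrps5 (-0.06) and Mrpl13 (-0.07). None of these 16 had an unadjusted p under 0.05.

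**Figure D2:**
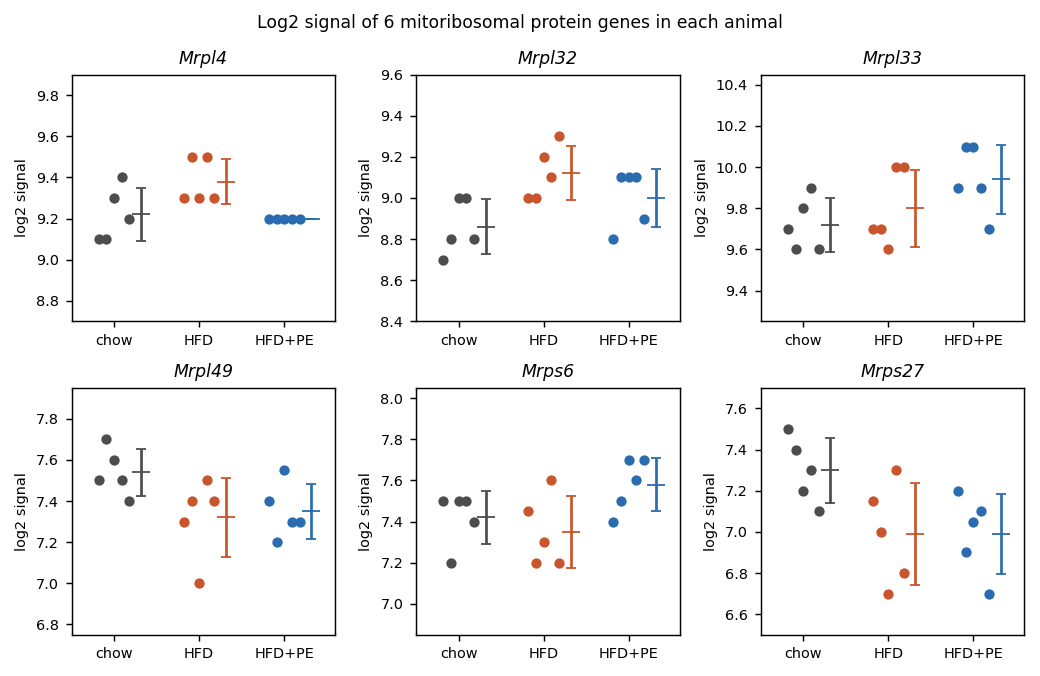
Log2 signal (vertical axes, each spanning 1.2 units) of the 6 genes with an unadjusted p under 0.05 in any comparison, 1 point per animal, with the mean and SD beside the 5 animals of each group. The groups overlap in each panel, except that all HFD+PE animals lie at 9.2 for Mrpl4, below the lowest HFD value of 9.3.

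Groups by structural role had medians between -0.05 and 0.02 in HFD against chow. The 4 proteins of the stalk, which recruits translation factors, had a median of -0.01: Mrpl10 was at -0.01, Mrpl12 at -0.04, Mrpl53 at 0.11 and Mrpl54 at -0.01. The 5 around the opening of the exit tunnel (Mrpl17, Mrpl22, Mrpl23, Mrpl45 and Mrpl47), a list that leaves out Mrpl4 with its unadjusted p of 0.0496 in limma, had a median of 0.02 and a range from -0.09 to 0.09. The 5 of the central protuberance, a knob of the large subunit that faces the small one (Mrpl18, Mrpl38, Mrpl40, Mrpl46 and Mrpl48), had a median of -0.01. The 6 near the decoding site and the mRNA path (Mrps2, Mrps5, Mrps7, Mrps11, Mrps12 and Mrps24) had a median of -0.05, with Mrps2 at 0.11 and Mrps12 at -0.11. Of these 20 genes, 0 had an unadjusted p under 0.05 in limma, against 7.65% of all genes. Large and small subunit medians were 0.03 and 0.01, and those of genes with and without bacterial counterparts were 0.03 and 0.02.

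HFD+PE against HFD addressed the extract on a constant diet. Again 0 of 73 genes passed adjustment in limma (0% of all genes), and 2 had an unadjusted p under 0.05 (2.74%, against 2.7% of all genes), 1 higher (1.37%, against 1.64%) and 1 lower (1.37%, against 1.06%). Of the 73, 30 were higher, 38 lower and 5 equal, with a median of -0.01 against 0.00 for all genes and a range from -0.18 to 0.23. The groups separated without overlap in 1 gene, Mrpl4 (1.37%, against 0.134% of all genes, of which 0.0774% were higher and 0.0563% lower).

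Mrpl4 stood at 9.2 in all 5 HFD+PE animals and at 9.3 to 9.5 in the HFD animals, so that the gap between the groups was 1 rounding step. The difference was -0.18 (SE 0.08; limma unadjusted p = 0.0294, adjusted p = 0.993), and the HFD+PE value lay within the chow range of 9.1 to 9.4. Mrps6, a small subunit protein with a bacterial counterpart, stood at 7.45, 7.2, 7.3, 7.6 and 7.2 in HFD and at 7.4, 7.5, 7.7, 7.6 and 7.7 in HFD+PE. The ranges overlapped, and 2 HFD+PE animals lay above the highest HFD animal. Its difference was 0.23 (SE 0.10, 95% interval 0.03 to 0.43; limma unadjusted p = 0.0277, adjusted p = 0.993).

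The other genes named by p were Mrpl13 (0.14), Mrpl10 (0.11), Mrpl44 (0.11), Mrpl48 (0.21), Mrpl33 (0.14), Mrps18c (0.08), Mrpl14 (0.12), Mrpl27 (0.09) and Mrps2 (0.09) on the higher side. On the lower side they were Mrpl32 (-0.12), Mrpl15 (-0.10), Mrpl42 (-0.15), Mrps7 (-0.08), Mrps35 (-0.11), Mrpl55 (-0.07), Mrpl20 (-0.11), Mrpl57 (-0.07) and Mrps14 (-0.07), again with no unadjusted p under 0.05. The medians were 0.03 for the stalk, 0.00 for the tunnel opening, -0.04 for the central protuberance and 0.00 for the decoding site. Mrpl48 of the central protuberance varied widely within HFD, with 7.6, 7.7, 8.3, 8.5 and 8.2 there, against 8.4, 7.9, 8.45, 8.4 and 8.2 in HFD+PE. Its difference of 0.21 had a 95% interval from -0.12 to 0.54.

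Diet and extract were compared together as HFD+PE against chow, which shares its animals with both comparisons above. This was the comparison in which most genes of the array had a small p, 11.1% of all genes with an unadjusted p under 0.05. Of the 73 mitoribosomal protein genes, 2 had (2.74%), 1 higher (1.37%, against 6%) and 1 lower (1.37%, against 5.14%), and 0 passed adjustment (limma, 0% of all genes). They split into 33 higher, 35 lower and 5 equal, with a median of 0.00 against 0.01 for all genes and a range from -0.31 to 0.22. In 0 genes did the groups separate without overlap, against 1.41% of all genes (0.682% higher, 0.732% lower).

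The 2 genes were Mrps27 and Mrpl33. Mrps27 stood at 7.2, 6.9, 7.05, 7.1 and 6.7 in HFD+PE, with the same mean as in HFD, 6.99, against 7.30 in chow (difference -0.31, SE 0.12; limma unadjusted p = 0.0212, adjusted p = 0.339). Its dimmer probe sets gave -0.05 (SE 0.10) and -0.20 (SE 0.09) here, and the average of its probe sets -0.187. Mrpl33, a small protein of the large subunit with a bacterial counterpart, stood at 9.7, 9.6, 9.8, 9.9 and 9.6 in chow and at 9.9, 10.1, 10.1, 9.9 and 9.7 in HFD+PE. The ranges overlapped between 9.7 and 9.9. The difference was 0.22 (SE 0.10, 95% interval 0.00 to 0.44; limma unadjusted p = 0.0481, adjusted p = 0.445), and the HFD animals stood at 9.7, 9.7, 9.6, 10 and 10.

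After these, the genes with the smallest p were Mrps2 (0.20), Mrpl14 (0.22), Mrps9 (0.14), Mrps6 (0.16), Mrpl52 (0.17), Mrpl32 (0.14), Mrps30 (0.18), Mrpl23 (0.12) and Mrpl10 (0.10) on the higher side. On the lower side they were Mrpl49 (-0.19), Mrps11 (-0.12), Mrps12 (-0.19), Mrps18b (-0.17), Mrpl46 (-0.16), Mrpl38 (-0.13), Mrpl55 (-0.09), Mrps25 (-0.09) and Mrpl42 (-0.12). The head-to-head neighbours Mrpl46 and Mrps11 were thus both on the lower side, at 7.60 ± 0.07 and 8.11 ± 0.06 in chow, 7.48 ± 0.22 and 8.02 ± 0.11 in HFD, and 7.44 ± 0.21 and 7.99 ± 0.06 in HFD+PE (SD, n = 5 each). Neither had an unadjusted p under 0.05 in any comparison. The stalk median was 0.05, that of the tunnel opening 0.01, that of the central protuberance -0.02 and that of the decoding site -0.04.

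**Figure D3:**
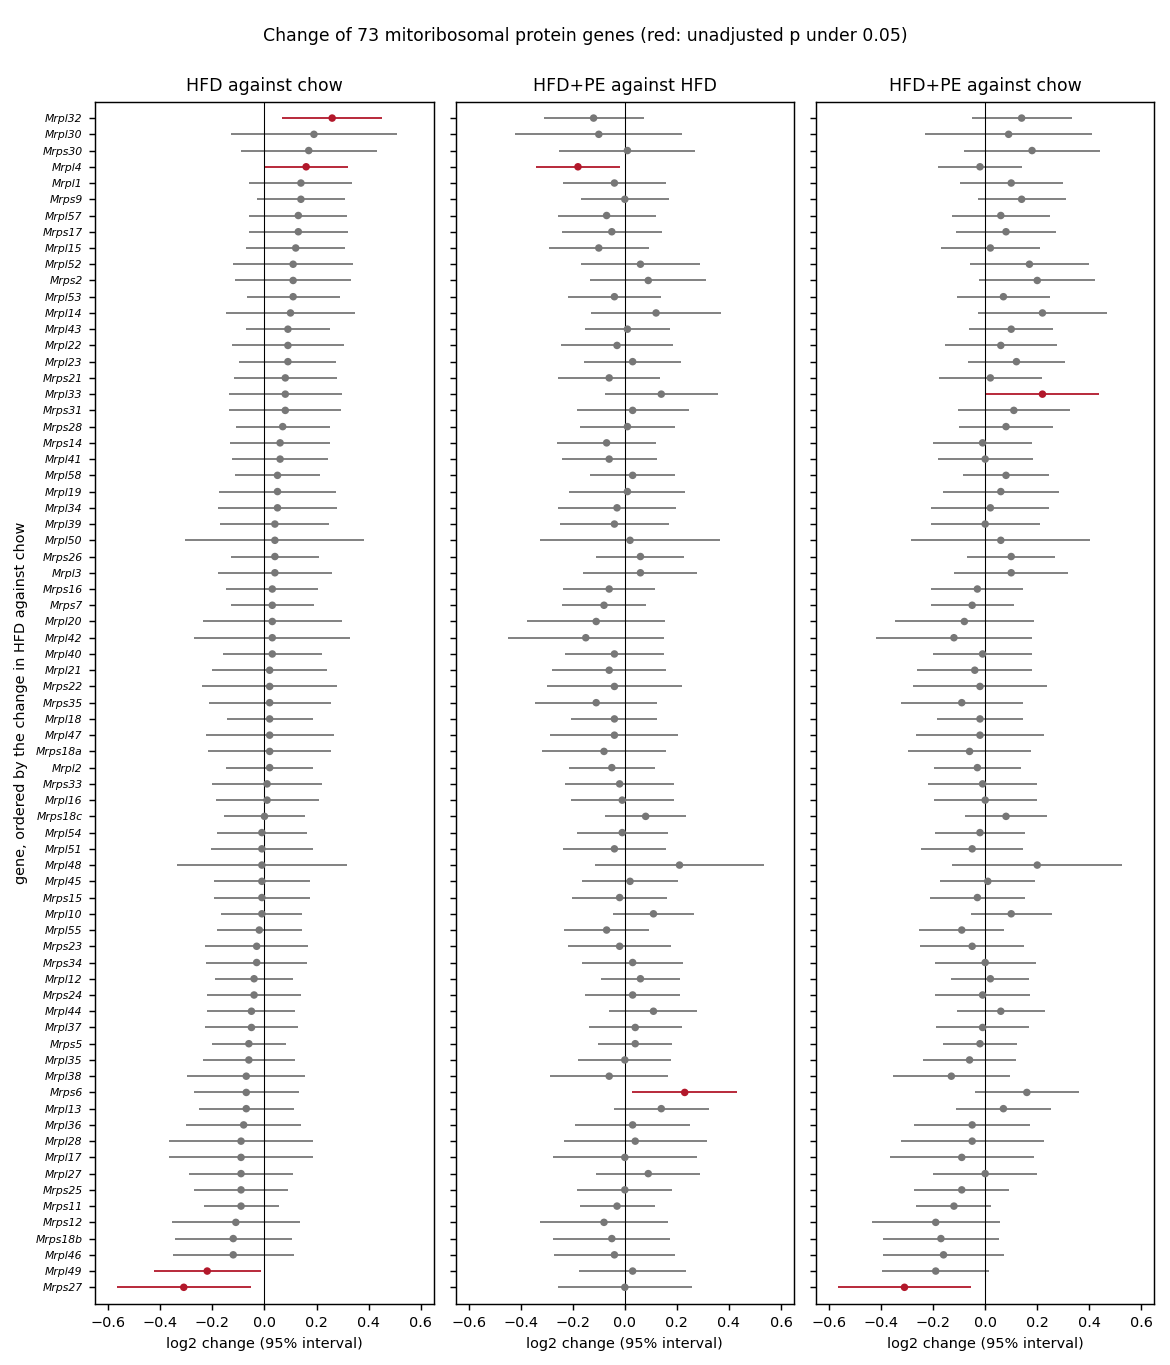
Log2 difference with its 95% interval (horizontal axes) for each of the 73 genes in the 3 comparisons, ordered in all panels by HFD against chow, with unadjusted p under 0.05 in red. The points stay between -0.31 and 0.26, and 4, 2 and 2 genes are red.

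The precision of these values sets what could have been seen. Standard errors of the 73 genes ran from 0.068 to 0.163 with a median of 0.093, against 0.105 for all genes. In each of the 3 comparisons, the 95% interval of all 73 genes excluded a 1.5-fold difference in either direction on the array's scale. That holds for the brightest probe set of each gene only. The other probe set of Mrpl50, for example, was at 0.34 (SE 0.19) in HFD against chow. Intervals lay wholly between -0.3 and 0.3 for 49 genes in HFD against chow, 57 in HFD+PE against HFD and 48 in HFD+PE against chow. The median size of a difference, sign apart, was 0.06, 0.04 and 0.06, against 0.08, 0.07 and 0.09 for all genes. These intervals are per gene and cover the spread between animals only, and array signals may understate the size of a change.

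Across all 3 groups at once, the moderated F test gave an unadjusted p under 0.05 for 2 genes, Mrps27 and Mrpl32 (2.74%, against 8.14% of all genes), and 0 passed adjustment. The range of the 3 group means was under 0.2 in 65 of 73 genes, with a median of 0.09. It was smallest in Mrpl16, at 0.01 (8.99, 9.0 and 8.99 in chow, HFD and HFD+PE), and largest in Mrps27, at 0.31. Over the 15 single animals the range, which cannot be smaller than that of the means, had a median of 0.5 against 0.6 for all genes. It ran from 0.2 in Mrps5 to 1.0 in Mrpl30.

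The animals within a group differed more than the groups did in the mean of the set. Means of 5 animals vary less than single animals, so this is no measure of an effect of diet. With each gene set relative to its own mean over the 15 animals, the mean of the 73 genes was -0.009 in chow, 0.007 in HFD and 0.002 in HFD+PE. The within-group SD of that mean was 0.079. It was 0.124 for nuclear OXPHOS subunits, 0.089 for mitochondrial transcription and RNA processing genes and 0.084 for cytosolic ribosomal proteins, while the mean of all genes (SD 0.011) is held near 0 by normalisation between arrays. In chow the animals stood at 0.00, -0.09, 0.09, 0.05 and -0.10 for animals 1, 2, 3-4, 5 and 6. In HFD they stood at -0.01, -0.04, -0.10, 0.15 and 0.02 for animals 1-2, 3, 4, 5 and 6. In HFD+PE they stood at -0.02, 0.06, 0.06, -0.03 and -0.06 for animals 1, 2, 3-4, 5 and 6. The highest and the lowest animal were thus both in the HFD group.

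In HFD 5, 71 of the 73 genes lay above their own mean, all but Mrpl52 and Mrpl55, where 7673 of all 14217 genes did. The count was 59 in chow 3-4, 19 in HFD 4, 16 in HFD+PE 6 and 10 in chow 6, and between 21 and 51 in the other 10 animals. HFD 5 was the highest HFD animal in 34 genes (46.6%, against 15.4% of all genes) and the lowest in 0. Both subunits did so: the large subunit mean of HFD 5 was 0.152 and the small subunit mean 0.148, and in HFD 4 they were -0.090 and -0.112. The 6 measured mitoribosomal proteins with other names, such as Dap3 and Ptcd3, which the choice by symbol leaves out, had means of 0.153 in HFD 5 and -0.047 in HFD 4. These animals were singled out after their values were seen, and no test was made.

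**Figure D4:**
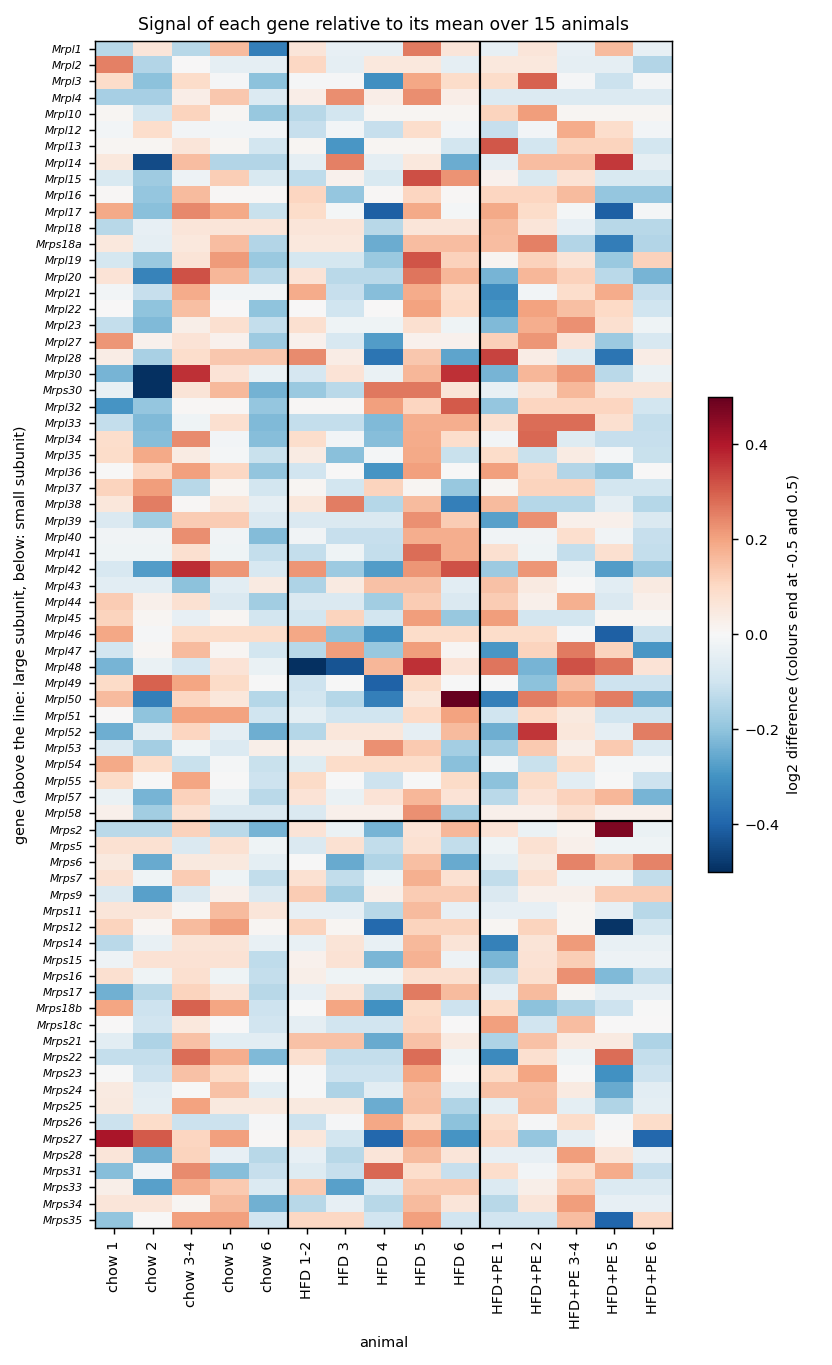
Signal of each of the 73 genes (rows, large subunit above the line and small subunit below) in each of the 15 animals (columns, grouped by diet), as the log2 difference from the gene's mean over all animals. The HFD 5 column is red in nearly all rows (71 of 73 above the mean), while chow 6 and HFD 4 are mostly blue.

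Several technical values moved beside these means. Between near-identical arrays, the array of chow 3 was lower than that of chow 4 in 49 genes and higher in 6, a mean difference of -0.100. HFD+PE 3 was lower than HFD+PE 4 in 37 and higher in 12 (-0.051), and HFD 1 and HFD 2 differed by -0.005. The high control set held 5 arrays (12.35 to 12.92) and the low set 13 (11.4 to 11.84). Chow 3 and HFD+PE 3 were in the high set, and chow 4 and HFD+PE 4 in the low set. The part of this set in the differences between animals was not tested. All HFD arrays were in the low set, so the gap between HFD 5 and HFD 4 lay within it. The sample descriptions carry a second number of unstated meaning, which was 1 instead of 3 for the arrays chow 2, HFD 5 and HFD+PE 4. Their member means, relative to all 18 arrays, were -0.097, 0.142 and 0.081, and the part of this number was not tested. The 3′ minus 5′ signal of GAPDH, a measure of RNA integrity that is larger in more degraded RNA, was 2.15 in chow 3-4, 2.5 in chow 5, 2.6 in chow 1, 2.8 in chow 6 and 3.2 in chow 2, so that it was lowest in the chow animal with the highest member mean. In HFD+PE it was 2.4 and 2.75 in animals 2 and 3-4, with the higher member means, and 3.0 to 3.4 in the other 3. In HFD it was 3.1 in HFD 5 and 3.0 in HFD 4, and 2.1 in HFD 6. The same measure for beta-actin was 4.05 in HFD+PE 3-4, the highest of that group, and 3.6 in HFD+PE 2, the lowest. It was 3.4 in chow 3-4 and chow 5 and 4.1 in chow 2, and 3.9 in both HFD 5 and HFD 4. The part of either measure in the differences between animals was not tested.

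Related groups of genes were followed through the same animals. Nuclear OXPHOS subunits (64 genes) were at 0.103 in HFD 5, 0.119 in chow 3-4, -0.140 in chow 2 and -0.097 in chow 6, all on the side of the mitoribosomal proteins. They were at -0.224 in HFD+PE 1, where the mitoribosomal proteins were at -0.022, and ranged over 0.407 in all, against 0.248. Cytosolic ribosomal proteins (42 genes) were at 0.095 in HFD 5 and -0.100 in HFD 4, but at -0.116 in HFD 6 and 0.029 in chow 6, where the mitoribosomal proteins were at 0.022 and -0.096. Mitochondrial transcription and RNA processing genes (17) were at 0.165 in HFD 5 and -0.123 in HFD 4.

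**Figure D5:**
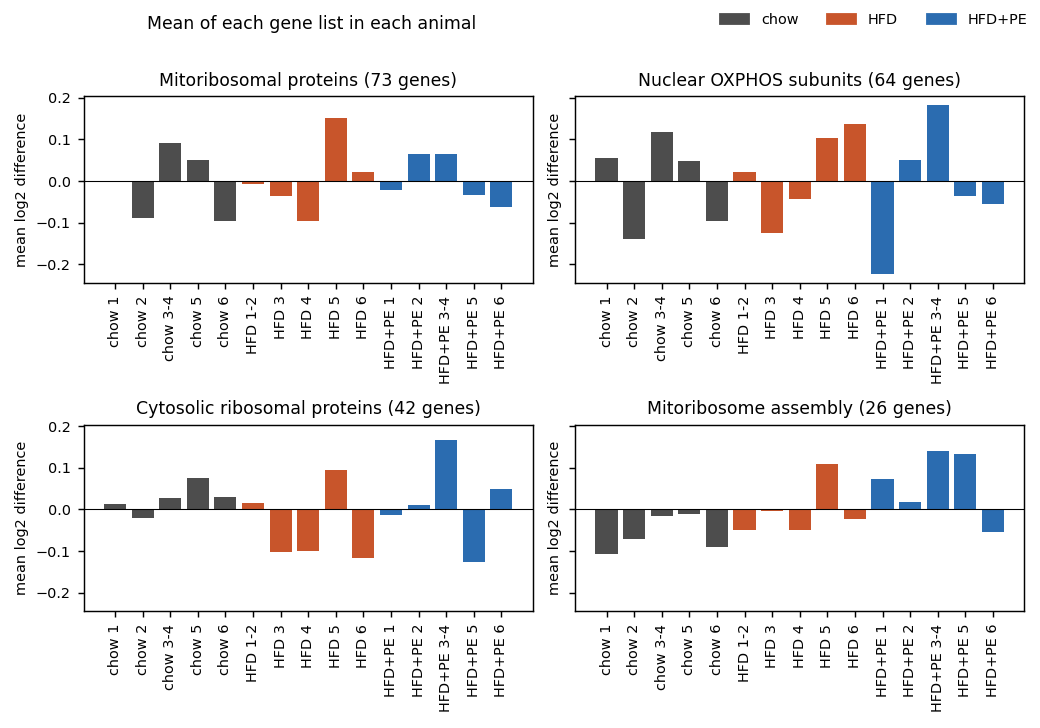
Mean log2 difference of each gene list from the genes' own means over 15 animals (vertical axis), 1 bar per animal, coloured by group. HFD 5 is above 0 in all 4 lists (0.151, 0.103, 0.095 and 0.109), while HFD+PE 1 is at -0.224 for nuclear OXPHOS subunits and at -0.022 for mitoribosomal proteins.

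Other genes of mitochondrial translation also gave no adjusted call in any comparison. The 26 measured factors that assemble the mitochondrial ribosome had medians of 0.03 in HFD against chow, 0.08 in HFD+PE against HFD and 0.09 in HFD+PE against chow, where 22 were higher and 4 lower. Gtpbp10, a GTPase that matures the large subunit, stood at 6.64 in chow, 6.94 in HFD and 7.09 in HFD+PE. Its difference between HFD+PE and chow was 0.45 (SE 0.09; limma unadjusted p = 0.000138, adjusted p = 0.104). Nsun4, an rRNA methyltransferase that helps join the subunits, was at 0.30 (SE 0.10), and Mettl15, which methylates the small subunit rRNA, at 0.50 (SE 0.16; adjusted p = 0.237 for each). These 3 of 26 were the assembly factors with an unadjusted p under 0.05 in that comparison, in which 11.1% of all genes had one.

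The 14 translation factors had medians of 0.05, 0.01 and 0.09 in the same order of comparisons, with Mtrf1l, a release factor, at 0.21 in HFD against chow and the ribosome recycling factor Gfm2 at 0.22 in HFD+PE against HFD. The 18 mitochondrial aminoacyl-tRNA synthetase and related genes had medians of 0.03, 0.04 and 0.08. Among them Wars2, for tryptophan, was at 0.31 in HFD against chow, and Yars2, for tyrosine, at -0.37 in HFD+PE against HFD. The 17 genes of mitochondrial transcription and RNA processing had medians of 0.04, 0.04 and 0.07. In HFD+PE against chow the DNA polymerase gene Polg was at 0.40, the single-stranded DNA binding protein gene Ssbp1 at 0.22 and the transcription factor gene Tfb2m at 0.19. These 3 of 17 had an unadjusted p under 0.05 in limma, as did 11.1% of all genes, and none had an adjusted one.

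The 9 measured regulators ranged from -0.54 to 0.23 in HFD against chow (4 higher, 5 lower). They ranged from -0.39 to 0.24 in HFD+PE against HFD (5 higher, 4 lower) and from -0.71 to 0.38 in HFD+PE against chow (7 higher, 2 lower). Among them Yy1 was at 0.20 in HFD against chow (SE 0.08; limma adjusted p = 0.594), and Gabpb1, a subunit of GABP, at 0.36 in HFD+PE against chow (SE 0.16; adjusted p = 0.413). In that comparison the coactivator genes Pprc1 and Ppargc1b were at 0.38 and -0.43, in opposite directions. None of the 13 genes encoded by mitochondrial DNA was among the genes named here, so the products of these ribosomes were not analysed.

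Marker levels of the other cell types in the tissue are given for comparison. Markers of Kupffer cells and other macrophages (10 of 12 measured) were lower by value in 10 of 10 in each comparison, and had medians of -0.54, -0.33 and -0.82 in the 3 comparisons. Their mean relative signal ran from 0.127 to 1.207 in chow, from -0.463 to 0.412 in HFD and from -0.903 to 0.057 in HFD+PE. Stellate cell and matrix markers (10 genes) had medians of -0.19, -0.10 and -0.32, and endothelial markers (7) -0.17, 0.00 and -0.11. Lymphocyte (9) and cholangiocyte (5) markers had medians between -0.05 and 0.04, the 3 erythrocyte genes -0.34, 0.08 and -0.26, and hepatocyte markers (9 of 10) -0.02, 0.01 and -0.01. No marker passed adjustment in limma. The part of these cell types in the values of Mrps27, Mrpl32 or Mrpl33 was not tested.

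For 18 of the 73 genes, more than 1 probe set could be read. Their probe sets differed in sign in 5, 8 and 8 genes in the 3 comparisons, but by over 0.2 in only 1 each. These were Mrps2 in HFD against chow (-0.17 to 0.11), Mrpl50 in HFD+PE against HFD (-0.24 to 0.02) and Mrps2 in HFD+PE against chow (-0.03 to 0.20). Probe sets of the same sign could still differ in size. For Mrpl50 in HFD against chow, the brightest gave 0.04 (SE 0.16) and the other 0.34 (SE 0.19).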

How the data were processed

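Liver RNA was hybridised to 18 arrays. The submitters' processing notes name Affymetrix Expression Console and RMA, which corrects background, normalises between arrays and summarises probes, with versions not given in the sources used here. As deposited, each of 31099 probe sets has a log2 signal per array, between 2.2 and 15.0. Precision is limited by how many animals there were and by rounding to 0.1.

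Of the non-control probe sets, 20826 named 1 gene symbol in the platform annotation, 436 named several and 9780 none; 57 controls were left out. Symbols were updated through Entrez identifiers, and each gene was its brightest probe set. No probe set was more than 2 units apart within 3 pairs of arrays (18 to 109 were in each of the other 150 pairs), and these pairs were averaged. The labels call all arrays biological replicates; nothing says more on how the animals were kept apart, so p-values measure the spread between these samples.

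The comparisons used limma 3.58.1 (R 4.3.3; 1 mean per group over 15 animals, two-sided, Benjamini-Hochberg over 14217 genes per comparison). The script was tested on simulated data. Tables and figures were made with pandas 2.3.3 and matplotlib 3.10.9. Named were, per comparison and direction, the 10 genes with the smallest p, the extremes of signal and of group-mean range, the structural roles, and up to 3 genes per related list. The genes, lists, tests and alternatives were chosen with earlier results of these data known. Alternatives were other probe-set rules, scaling, a trended prior, a filter on dim genes, the hybridization-control set, the second description number, all 18 arrays, a replicate block and leaving out each animal.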

Additional observations from a re-analysis of the deposited data

Results flagged for a closer look

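The 73 genes and their mean in 3 groups gave 222 sets of 5 animals, and in 10 of these (4.5%), all of single genes, 1 animal lay far from the other 4, with a gap above 0.71 of the group's range. For independent, unrounded values chance gives about 1 in 20. The sets here share their animals and hold rounded signals, so the 4.5% cannot be measured against that rate. HFD 4 was the low animal 4 times: Mrps12 at 8.8 (others 9.2 to 9.3), Mrps18a at 8.4 (8.7 to 8.8), Mrps21 at 9.2 (9.5 to 9.6) and Mrpl18 at 9.8 (10 in each other). In HFD+PE, animal 2 was high for Mrpl34 at 8.7 (8.3 to 8.4) and Mrps17 at 9.8 (9.6 to 9.65), animal 3-4 for Mrpl58 at 8.55 (8.5 in each other) and animal 5 for Mrps2 at 8.8 (8.3 to 8.4). In chow, animal 3-4 was high for Mrps2 at 8.45 (8.1 to 8.2) and animal 2 for Mrpl12 at 9.9 (9.8 in each other). The gaps of Mrpl12 and Mrpl58 were 1 rounding step or less.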

How the results depend on the processing

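No mitoribosomal protein gene passed adjustment in any alternative run. The hybridization-control set was unevenly spread over the diet groups, so runs that use it can also remove part of a diet difference. The count with an unadjusted p under 0.05 moved by over 1.5 times with some. In HFD against chow it was 0 instead of 4 with the hybridization-control set as a covariate and 0 on its low set alone, and 2 on arrays with second number 3 only (4.68%, 5.56% and 5.23% of all genes, against 7.65%). In HFD+PE against HFD it was 1 instead of 2 with the covariate and 1 on second number 3 only (3.46% and 2.67% of all genes, against 2.7%). In HFD+PE against chow it was 1 instead of 2 with the covariate, 0 on the low set and 1 on second number 3 only (10.2%, 7.93% and 8.55% of all genes, against 11.1%). In the F test it was 6 instead of 2 with 18 arrays as separate animals (10.9% of all genes, against 8.14%). Leaving out 1 animal gave 2 to 5 (2 without chow 1, chow 2 or HFD 4), 0 to 2 (0 without HFD 3; 1 without HFD 4, HFD 6, HFD+PE 3-4 or HFD+PE 6) and 0 to 4 (0 without chow 1, 4 without chow 3-4; 1 without chow 2, HFD 1-2, HFD 3, HFD+PE 2, HFD+PE 5 or HFD+PE 6). Over these omissions, 5.96% to 9.98%, 2.22% to 4.22% and 8.5% to 12.1% of all genes had such a p. The medians moved by less than 0.079 throughout, the SD of single animals within groups, which is a loose limit for means of 5 animals. Without 1 animal they ran from -0.015 to 0.055, from -0.045 to 0.022 and from -0.025 to 0.025, so both signs occurred in each comparison. The 1440 values of single genes covered only the 10 genes named per comparison and direction. These were chosen by a small p, so few reversals were to be expected. Of the values, 6 reversed. In HFD against chow they were Mrpl30 on the low set (-0.037) and Mrpl13 with the covariate (0.016). In HFD+PE against HFD they were Mrps18c with probe sets averaged (-0.013) and Mrps2 without HFD+PE 5 (-0.003 of a leave-one-out range up to 0.130). Mrps14 also reversed there, on the low set (0.020) and without HFD+PE 1 (0.007 of a range from -0.130). Values of unchanged sign could still shrink, as for Mrps30 in HFD against chow, from 0.17 to 0.013 on second number 3. The cause was not tested. Deviations of same-numbered arrays from their group means had correlations from -0.305 to 0.189, 4 of 18 over 0.1. Arrays with different numbers were not set beside them, so whether the numbers pair the animals was not settled. A replicate block on 18 arrays, each counted as a separate sample, gave counts of 4, 3 and 3 (8.81%, 5% and 13.7% of all genes).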
